A study of Mus musculus with 24 samples.

Results

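The interleukin-1 (IL-1) family and inflammasome genes are described here as 10 genes: the cytokine genes Il1a, Il1b and Il18, the antagonist genes Il1rn and Il18bp, the sensor gene Nlrp3, the adaptor gene Pycard, the protease genes Casp1 and Casp4, and the pore-forming effector gene Gsdmd. They were chosen by name, as the rows of the deposited table whose gene symbol is 1 of these 10, out of 43629 genes in the table. All 10 were found, and all 10 passed the filter on low values, which kept 18637 genes. RNA was sequenced from cultured macrophages that had been derived from the bone marrow (BMDMs) of C57BL/6 mice at postnatal week 10. The 8 groups were CITED2-KO (KO) cells given lipopolysaccharide (LPS), interferon gamma (IFNg) or interleukin 4 (IL4) or left as control, and Wild Type (WT) cells given LPS, IFNg or IL4 or left as control. Each group held 3 libraries, 24 in all. The CITED2 protein acts on transcription through the coactivators CBP and p300. Not given in the labels are the way Cited2 was deleted, the doses and times of treatment, and if each replicate is a separate animal or culture. The p-values therefore rest on the spread between libraries, which may be technical. In bulk libraries fewer cells of a type and less RNA per cell cannot be told apart.

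IL-1 alpha and IL-1 beta signal through the same receptor, IL1R1, and the IL-1 receptor antagonist encoded by Il1rn occupies that receptor without signalling. Interleukin 18 uses a receptor of its own and is held in check by the secreted IL-18 binding protein encoded by Il18bp. IL-1 beta and IL-18 are made as inactive precursors: in the canonical inflammasome NLRP3 joins the adaptor ASC, encoded by Pycard, which brings in caspase-1 to cut both precursors and gasdermin D. Mouse Casp4 encodes caspase-11, the sensor of cytosolic LPS that also cuts gasdermin D, whose fragment forms pores in the plasma membrane. In macrophages, transcription of Il1b and Nlrp3 is known as the priming step, which precedes assembly. RNA levels do not measure cleavage or release.

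The promoter windows of 4 members are shown because these genes span the range of responses described below: Il1a and Il1b changed most with LPS, Il1rn rose with LPS and IFNg and fell with IL4, and Casp4 differed most between genotypes with IL4. Each window runs from 250 bases before to 50 bases after a RefSeq start site on build GRCm38.p6, written 5′ to 3′ along the gene's strand. They lie at chr2:129309923-129310222 (minus strand), chr2:129371090-129371389 (minus strand), chr2:24336610-24336909 (plus strand) and chr9:5308599-5308898 (plus strand). Capitals mark matches to 1 of 4 motifs searched on both strands: the kappaB consensus, ISRE (GAAA and GAAA with NN between), GAS (TTCNNNGAA) and AP-1 (TGANTCA).
Il1a: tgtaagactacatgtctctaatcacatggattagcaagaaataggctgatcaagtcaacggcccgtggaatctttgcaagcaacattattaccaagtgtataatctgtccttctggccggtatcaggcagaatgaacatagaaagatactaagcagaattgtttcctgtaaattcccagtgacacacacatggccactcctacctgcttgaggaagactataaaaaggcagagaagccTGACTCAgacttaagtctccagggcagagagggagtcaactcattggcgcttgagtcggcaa
Il1b: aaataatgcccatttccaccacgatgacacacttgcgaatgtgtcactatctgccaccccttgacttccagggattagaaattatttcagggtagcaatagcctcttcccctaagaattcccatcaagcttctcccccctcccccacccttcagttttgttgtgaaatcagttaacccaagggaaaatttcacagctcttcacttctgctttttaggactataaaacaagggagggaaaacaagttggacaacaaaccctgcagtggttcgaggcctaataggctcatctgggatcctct
Il1rn: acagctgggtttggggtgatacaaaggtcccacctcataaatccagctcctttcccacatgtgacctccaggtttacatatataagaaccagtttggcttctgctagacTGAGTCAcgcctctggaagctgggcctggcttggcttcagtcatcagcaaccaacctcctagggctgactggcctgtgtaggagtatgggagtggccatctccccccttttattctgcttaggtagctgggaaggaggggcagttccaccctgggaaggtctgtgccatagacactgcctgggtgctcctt
Casp4: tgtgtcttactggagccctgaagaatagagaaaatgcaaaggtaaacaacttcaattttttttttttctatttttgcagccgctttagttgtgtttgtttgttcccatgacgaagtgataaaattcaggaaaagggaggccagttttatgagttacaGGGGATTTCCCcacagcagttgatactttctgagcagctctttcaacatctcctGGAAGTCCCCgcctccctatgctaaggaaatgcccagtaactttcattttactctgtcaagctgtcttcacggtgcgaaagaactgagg

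In the Il1a window the capitals are an AP-1 match that begins 12 bases before the start site, and in the Il1rn window an AP-1 match that begins 141 bases before it. The Casp4 window holds 2 overlapping kappaB matches, at 93 and 92 bases before the start site, and another at 39 bases before it. The Il1b window holds no match to any of the 4 motifs, which says only that these letters are not within these 300 bases. Of all 32851 promoter windows of the same length, 8.46% held the kappaB consensus, 3.44% the ISRE, 8.30% the GAS and 7.81% the AP-1 letters. RefSeq windows were matched for 9 of the 10 members, 13 windows in all, and 2 windows not shown held a match. A Casp4 window at chr9:5308610-5308909 (plus strand), which overlaps the one shown, holds the same kappaB letters, and an Nlrp3 window at chr11:59541319-59541618 (plus strand) holds a kappaB match 186 bases before its start site. The Il1rn windows at chr2:24345041-24345340 and chr2:24345121-24345420 (plus strand), from other start sites, hold no match. Gsdmd had no entry. A match is a description of letters, not a site of binding.

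Reads per library ranged from 1478507 in KO LPS replicate 1 to 73409343, with a median of 29551523. The deposited values are normalised read counts, in which 1 read was worth 23.6 in KO LPS replicate 1 and at least 0.355 elsewhere, so a floor of 3 reads was 70.9 in that library. This floor covers counting error only. Cited2 averaged 27.9, 48.7, 13.6 and 11.7 in KO control, LPS, IFNg and IL4 cells, against 2207, 3593, 2438 and 1148 in the matching WT groups. All 10 macrophage markers, Adgre1 and Csf1r among them, had reads in all 24 libraries. The 12 neutrophil and precursor markers summed to 3868 to 4248 in KO control cells, against 3375 to 3702 in WT control cells. With LPS the same sum was 7684 to 8079.8 in KO cells, against 8365 to 8785 in WT cells. Csf3r was its most abundant gene in every group, and the defining marker Ly6g had a mean of 0 in 7 of 8 groups and 0.190 in WT IFNg cells. The 6 B cell markers summed higher in KO than in WT cells in all 4 treatments, up to 967 with IL4, nearly all of it Cd22. The 6 dendritic markers summed to 657 to 701 in KO IFNg cells, against 754 to 845 in WT IFNg cells, most of it Clec9a, and to at most 38.6 elsewhere. The fibroblast list reached 507, the T and NK list 58.0 and the mast and basophil list 25.1 at most.

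KO and WT cells were compared within each treatment, which asks what the loss of CITED2 does to these genes at rest and in each activated state. A gene was called at a limma p-value below 0.05 after Benjamini-Hochberg adjustment over all 18637 genes, and each log2 difference is that of the normalised count plus 1, given with its SE. In untreated cells 3 of the 10 members were called, Il1a and Il18bp higher in KO and Nlrp3 lower, where 7.16% of all genes were called. With LPS 5 were called, Il1a, Il1rn and Casp4 higher in KO and Il18bp and Pycard lower, beside 22.2% of all genes. With IFNg 7 were called, Il1a, Il1b, Il1rn, Casp1 and Casp4 higher and Nlrp3 and Gsdmd lower, beside 9.05% of all genes. That count was 4 without KO IFNg replicate 3, WT IFNg replicate 1 or WT IFNg replicate 3. With IL4 7 were called, Il1a, Il1rn, Il18bp, Casp1, Casp4 and Gsdmd higher and Nlrp3 lower, beside 9.29% of all genes.

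Over the mean of the 4 treatments, 6 members were higher in KO (Il1a, Il1b, Il1rn, Il18bp, Casp1 and Casp4) and Nlrp3 was lower, beside 22.3% of all genes. The mean differences were 0.99 for Il1a, 0.54 for Il1b, 0.42 for Casp4, 0.34 for Casp1, 0.25 for Il1rn, 0.16 for Il18bp and -0.49 for Nlrp3. The Il18bp call was lost under total scaling (adjusted p = 0.30). Its mean joins differences of opposite sign, 0.41 in control, -0.37 with LPS, -0.19 with IFNg and 0.80 with IL4. The differences of Il1rn (-0.21) and Il1b (-0.35) were negative in control cells, where neither was called. Il1a was the only member called higher in KO in all 4 treatments. Nlrp3 was called lower in 3 of the 4, and with LPS its adjusted p was 0.079. The members' median log2 difference was 0.09 in control, 0.01 with LPS, 0.27 with IFNg and 0.52 with IL4 cells, against 0.00, -0.06, -0.03 and 0.00 over all genes. Where every library was instead scaled to the same total, an alternative added after the data were seen, the calls over all genes with LPS were 1023 higher and 4622 lower in KO, against 1808 and 2333 as deposited, and the median of all genes moved by -0.14.

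**Figure D1:**
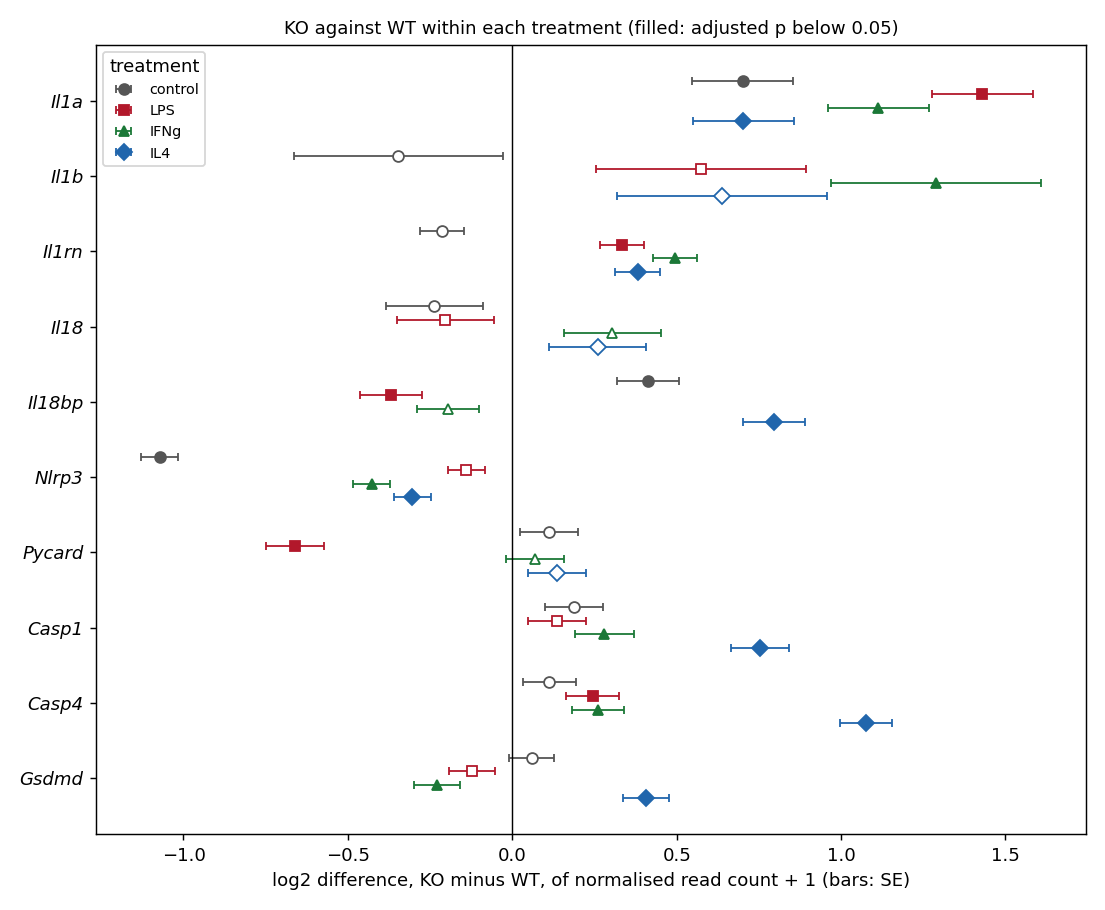
Log2 difference, KO minus WT, of the normalised read count plus 1 for the 10 genes in control, LPS, IFNg and IL4 cells, with SE bars and filled marks where the adjusted p was below 0.05. Il1a lies right of 0 in all 4 treatments (0.70 to 1.43), Nlrp3 lies left of it in all 4 (-1.07 to -0.14), and Casp4 is farthest right with IL4 (1.08).

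Each treatment was then set against the untreated cells of its own genotype, which asks how the macrophages respond to it. LPS raised 9 of the 10 members in KO cells and all 10 in WT cells, where 24.5% of all genes in KO and 25.5% in WT cells were called higher. IFNg raised all 10 in KO and all 10 in WT cells, beside 22.3% and 22.5% of all genes. IL4 raised 8 in KO cells and 5 in WT cells, beside 12.6% and 10.6% of all genes, and lowered Il1rn in both. With every library scaled to the same total, the shares of all genes called higher were 12.3% and 13.3% with LPS and 13.1% and 14.0% with IFNg in KO and WT cells, and the median of all genes moved by -0.60 and -0.58 with LPS. Of the members' IFNg calls that scaling ended 2, Pycard in KO cells (0.19, adjusted p = 0.076) and Il18 in WT cells (0.24, adjusted p = 0.16).

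The members' log2 changes with LPS spanned from -0.08 (Pycard) to 12.79 (Il1b) in KO cells and from 0.69 to 11.87 for the same genes in WT cells. Their median change with LPS was 4.13 in KO and 4.44 in WT cells, against -0.21 and -0.06 over all genes. With IFNg the largest change was that of Il1rn, 6.00 in KO and 5.29 in WT cells. With IL4 it was a rise of Il18bp, 1.93 in KO and 1.55 in WT cells. These comparisons share their control libraries with each other and with the genotype comparison at rest, so their values are only set side by side.

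Whether a response differed between genotypes was tested as an interaction: the change in KO cells minus the change in WT cells. With LPS 5 members were called, beside 8.79% of all genes: the changes of Il1a, Il1rn and Nlrp3 were larger in KO, and those of Il18bp and Pycard were smaller. With IFNg 3 were called, beside 2.50% of all genes, larger in KO for Il1rn and Nlrp3 and smaller for Il18bp. With IL4 5 were called, all with positive differences (Il1rn, Nlrp3, Casp1, Casp4 and Gsdmd), beside 3.61% of all genes. Nlrp3 and Il1rn were called in all 3 interactions.

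**Figure D2:**
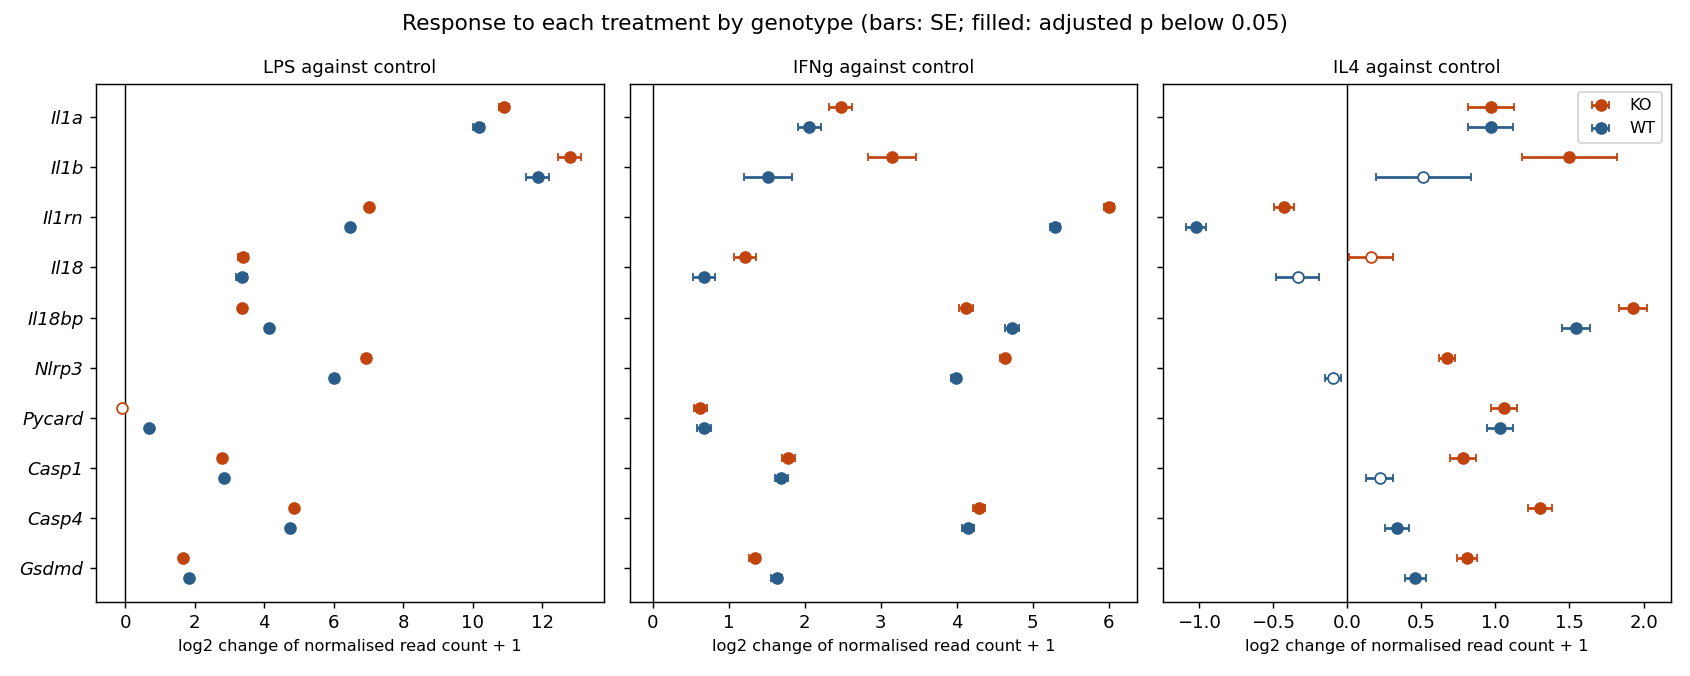
Log2 change of the normalised read count plus 1 with LPS, IFNg and IL4 against control, in KO and WT cells, with SE bars and filled marks where the adjusted p was below 0.05. Il1b is farthest right with LPS (12.79 in KO and 11.87 in WT cells), Il1rn with IFNg (6.00 and 5.29), and Il1rn alone lies left of 0 with IL4 in both genotypes with filled marks (-0.42 and -1.02).

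**Figure D3:**
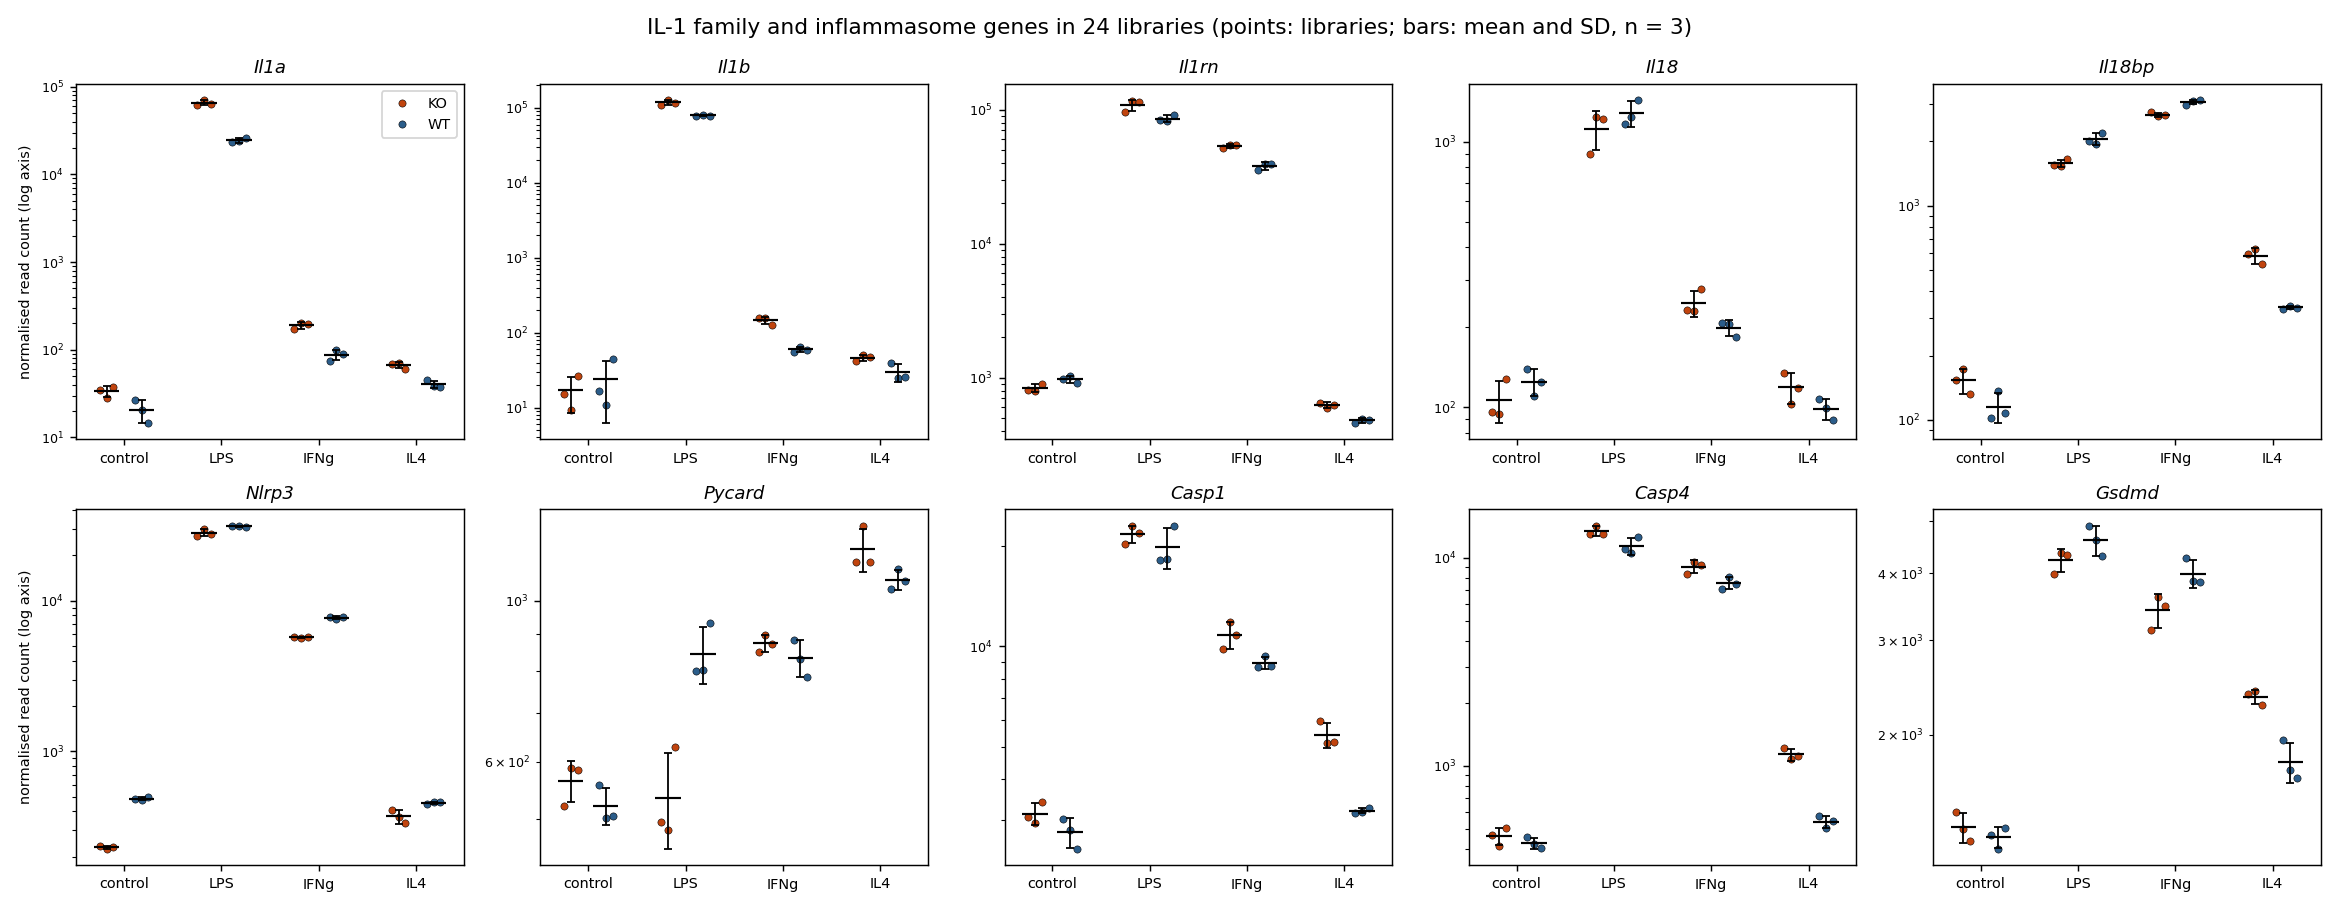
Normalised read count (log axis, own scale for each gene) of the 10 genes in every library by treatment, KO left and WT right within each treatment, with points for libraries and bars for mean and SD (n = 3). The KO points of Il1a sit above the WT points in all 4 treatments, and those of Nlrp3 sit below them in all 4.

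Il1a, the gene of IL-1 alpha, was higher in KO cells in all 4 treatments, and the difference was largest with LPS. With LPS it had 62323, 71135 and 64425 normalised reads in the KO libraries, against 23342, 24056 and 26004 in the WT libraries. Every KO library lay above every WT library, by 2.70-fold in the means (log2 difference 1.43 ± 0.15, adjusted p = 1.9e-07). With IFNg the gene had 171, 202 and 198 in KO libraries, against 75.3, 98.6 and 89.6 in WT libraries (log2 difference 1.11 ± 0.15, adjusted p = 1.5e-05). With IL4 it had 68.6, 70.3 and 60.7 in KO libraries, against 45.0, 38.9 and 37.7 in WT libraries (log2 difference 0.70 ± 0.15, adjusted p = 0.0028). The genotypes again did not overlap in either treatment.

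In untreated cells Il1a was near its lowest, with 34.9, 28.2 and 37.7 in KO libraries, against 27.0, 20.6 and 14.7 in WT libraries. The ranges stood close without overlapping, and the log2 difference was 0.70 ± 0.15, adjusted p = 0.0037. The lowest WT value rested on 6 reads, in WT control replicate 3, and the call was lost in edgeR (adjusted p = 0.077), in DESeq2 (0.059) and in a fit of the compared groups only (0.24). Over the 8 groups the order of the means was KO LPS, WT LPS, KO IFNg, WT IFNg, KO IL4, WT IL4, KO control and WT control. Only WT IL4 and KO control overlapped as neighbours. The rise with LPS was 10.90 ± 0.15 in KO and 10.17 ± 0.15 in WT cells on the log2 scale, an interaction of 0.73 ± 0.22, adjusted p = 0.036. That interaction was lost without any 1 of 7 libraries: KO control 1 or 2, WT control 1 or 2, KO LPS 2, WT LPS 1 or WT LPS 2 (adjusted p 0.052 to 0.12), under total scaling (0.063) and in a fit of the compared groups only (0.14).

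Il1b, the gene of IL-1 beta, was the member that rose most with LPS in both genotypes, and by the limma test it differed between genotypes with IFNg and not in the other 3 treatments. With LPS it had 108747, 128229.6 and 117603 normalised reads in the KO libraries, against 78724, 80185 and 78569 in the WT libraries. All 3 KO libraries lay above all 3 WT libraries, by 1.49-fold in the means, but the log2 difference of 0.58 ± 0.32, adjusted p = 0.21 did not pass the test. The difference was called in edgeR (adjusted p = 3.2e-06), in DESeq2 (0.016) and in a fit of the LPS groups only (0.026), which does not share the spread of the untreated libraries. With IFNg Il1b had 159, 155 and 128 in KO libraries, against 54.7, 65.0 and 59.7 in WT libraries, again without overlap (log2 difference 1.29 ± 0.32, adjusted p = 0.0092). With IL4 the values were 41.4, 50.7 and 46.9 in KO libraries, against 39.2, 25.2 and 25.4 in WT libraries. These sets stood apart too, with an adjusted p of 0.29, and were called in edgeR (0.047) and with library weights (0.045).

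Untreated cells held little Il1b RNA, 15.3, 9.41 and 26.3 in KO libraries, against 16.7, 11.0 and 44.0 in WT libraries, from 9 to 31 reads a library. The genotypes overlapped, and replicate 3 was highest in both. The order of the means was KO LPS, WT LPS, KO IFNg, WT IFNg, KO IL4, WT IL4, WT control and KO control, where WT IL4 and the control groups overlapped as neighbours. Its rise with IFNg was 3.15 ± 0.32 in KO and 1.52 ± 0.32 in WT cells, an interaction of 1.63 ± 0.45, adjusted p = 0.055. That missed the threshold but was called without KO control replicate 3 or WT control replicate 2 (adjusted p 0.0050 to 0.0099), in edgeR (0.023), in DESeq2 (0.0063), with library weights (0.015) and with a pseudocount of 5 (0.028). With IL4 Il1b rose in KO cells (1.50 ± 0.32, adjusted p = 0.00085), while in WT cells the change was 0.52 ± 0.32, adjusted p = 0.33 and was called without WT control replicate 3 (0.0040), in edgeR (0.020) and with library weights (0.0019). The interaction with IL4 was 0.98 ± 0.45, adjusted p = 0.38.

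Il1a lies at chr2:129299610-129309972 and Il1b at chr2:129364570-129371139, both on the minus strand of chromosome 2 in GRCm38 (GENCODE M21). The strand setting of the counting is not given in the sources used here, so reads of an overlapping gene on the plus strand cannot be told apart from those of a member. Il1a shares 222 exonic bases with Gm14023, which reached at most 163 in any library. Il1b shares 25 with the antisense gene Il1bos, which averaged 217 in KO LPS cells, against 53.5 in WT LPS cells. The sum of the neutrophil list, whose cells also express Il1b, was lower in KO than in WT LPS cells in every library. Csf3r made up most of that sum, at 5211 in KO and 5954 in WT LPS cells. Among the other genes S100a8 (754 and 642), S100a9 (1139 and 942) and Ltf (157 and 97.7) were higher in KO LPS cells. Ngp (386 and 598), Camp (47.0 and 63.7) and Mmp8 (196 and 210) were lower, so the genes of the list did not move together. With IFNg the list summed to 6097 to 6391 in KO cells, against 5634 to 5952 in WT cells. Its part in the Il1a and Il1b results was not tested.

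Il1rn, the gene of the IL-1 receptor antagonist, was higher in KO cells under all 3 treatments and was the member that responded most to IFNg. It had 51970.3, 54283 and 54683 normalised reads in KO IFNg libraries, against 35268, 39647 and 39362 in WT IFNg libraries. The KO values were all above the WT values, by 1.41-fold in the means (log2 difference 0.50 ± 0.07, adjusted p = 1.2e-05). With LPS it had 96816, 115215 and 113325 in KO libraries, against 83534, 82320.0 and 91836 in WT libraries (log2 difference 0.33 ± 0.07, adjusted p = 0.00071). With IL4 it had 652, 594 and 627 in KO libraries, against 459, 495 and 483 in WT libraries (log2 difference 0.38 ± 0.07, adjusted p = 0.00029). No pair of genotypes overlapped. The call with LPS was lost in a fit of the LPS groups only (adjusted p = 0.17).

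At rest Il1rn had 813, 801 and 899 in KO libraries, against 980.2, 1022 and 911 in WT libraries. These did not overlap, but the log2 difference of -0.21 ± 0.07, adjusted p = 0.059 missed the threshold, which it passed without KO control replicate 3 or WT control replicate 3 (adjusted p 0.029 to 0.038) and under 5 of the 10 other alternatives, DESeq2 (0.031), the replicate block (0.049) and total scaling (0.0014) among them. Its change differed between genotypes under every treatment: 7.01 ± 0.07 in KO and 6.47 ± 0.07 in WT cells with LPS (interaction 0.55 ± 0.10, adjusted p = 0.00036), and 6.00 ± 0.07 and 5.29 ± 0.07 with IFNg (interaction 0.71 ± 0.10, adjusted p = 4.0e-05). IL4 lowered it, with changes of -0.42 ± 0.07 in KO and -1.02 ± 0.07 in WT cells, and the positive interaction of 0.59 ± 0.10, adjusted p = 0.00020 stands for a smaller fall in KO. In the order of the means neighbouring groups did not overlap for Il1rn, as for Nlrp3. How many of all genes share this was not counted. The order of the Il1rn means was KO LPS, WT LPS, KO IFNg, WT IFNg, WT control, KO control, KO IL4 and WT IL4. Il1rn lies at chr2:24336853-24351494 on the plus strand.

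Il18, the gene of interleukin 18, rose with LPS and IFNg in both genotypes and by limma on the deposited scale was not called between genotypes in any treatment. With LPS it had 898, 1237 and 1215 normalised reads in KO libraries, against 1162, 1236 and 1439 in WT libraries, and the sets overlapped. Under total scaling the LPS difference was called lower in KO (-0.37, adjusted p = 0.049). Its log2 change with LPS was 3.38 ± 0.15 in KO and 3.35 ± 0.15 in WT cells, an interaction of 0.03 ± 0.21, adjusted p = 0.96. With IFNg it had 232, 229 and 278 in KO libraries, against 208, 206 and 183 in WT libraries. Here the KO libraries were all higher, with a log2 difference of 0.30 ± 0.15, adjusted p = 0.28, called with library weights (0.013). The rise with IFNg was 1.22 ± 0.15 in KO and 0.68 ± 0.15 in WT cells, and under total scaling the WT value was 0.24 (adjusted p = 0.16). In untreated cells the gene averaged 106 ± 19.0 in KO and 125 ± 15.0 in WT cells (SD, n = 3 each), and with IL4 119 ± 16.0 and 98.6 ± 8.87. Below the IFNg groups the means were so close that all neighbouring groups overlapped. Il18 lies at chr9:50554827-50581840 on the plus strand.

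Il18bp, the gene of the secreted IL-18 inhibitor, differed between genotypes in opposite directions: higher in KO cells at rest and with IL4, lower with LPS. With IL4 it had 595, 628 and 532 normalised reads in KO libraries, against 331, 342 and 334 in WT libraries. The KO libraries were all higher, by 1.74-fold in the means (log2 difference 0.80 ± 0.09, adjusted p = 1.1e-06). With LPS the gene had 1559, 1544 and 1652 in KO libraries, against 2014, 1939.5 and 2196 in WT libraries. The KO libraries were all lower, at 77.3% of the WT mean (log2 difference -0.37 ± 0.09, adjusted p = 0.0060). In untreated cells it had 154, 174 and 132 in KO libraries, against 102, 136 and 107 in WT libraries. These overlapped, and the call (0.41 ± 0.09, adjusted p = 0.0056) was lost without KO control replicate 2 or WT control replicate 1 (adjusted p 0.055 to 0.061) and in a fit of the control groups only (0.24).

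IFNg gave the highest Il18bp of all, 2734, 2625 and 2653 in KO libraries, against 2975, 3077 and 3119.7 in WT libraries, without overlap but with a log2 difference of -0.19 ± 0.09, adjusted p = 0.28. That difference was called in DESeq2 (0.023) and in a fit of the IFNg groups only (0.016). The rise with IFNg was 4.12 ± 0.09 in KO and 4.73 ± 0.09 in WT cells (interaction -0.61 ± 0.13, adjusted p = 0.0094). With LPS it was 3.37 ± 0.09 in KO and 4.15 ± 0.09 in WT cells (interaction -0.78 ± 0.13, adjusted p = 0.00030). Both rises were smaller in KO cells, and the IFNg interaction was lost in a fit of the compared groups only (0.055). Il18bp lies at chr7:102014885-102018690 on the minus strand and shares 80 exonic bases with Numa1 on the plus strand, which averaged 3730.0, 1456, 1476 and 2316 in KO control, LPS, IFNg and IL4 cells. In the same WT groups Numa1 averaged 3485, 1381, 1277 and 2629, a part in the Il18bp values that was not tested.

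Nlrp3, the gene of the inflammasome sensor, was lower in KO cells at rest, with IFNg and with IL4, and the difference was largest at rest. In untreated cells it had 235, 226 and 231 normalised reads in KO libraries, against 481, 476 and 501 in WT libraries. The KO libraries held 47.4% of the WT mean, with a log2 difference of -1.07 ± 0.06, adjusted p = 2.2e-12, the member difference with the smallest p at rest. With IFNg the values were 5774, 5705 and 5734 in KO libraries, against 7829, 7521 and 7802 in WT libraries (log2 difference -0.43 ± 0.06, adjusted p = 7.7e-06). With IL4 they were 410.2, 366 and 334 in KO libraries, against 446, 462 and 458 in WT libraries (log2 difference -0.30 ± 0.06, adjusted p = 0.00052). The genotypes did not overlap in any of these, and the IL4 call was lost in a fit of the IL4 groups only (adjusted p = 0.072).

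After LPS Nlrp3 had 26980.0, 30186 and 27985 in KO libraries, against 31209, 31611 and 30928 in WT libraries. All KO libraries were still lower, at 90.8% of the WT mean, but the log2 difference of -0.14 ± 0.06, adjusted p = 0.079 missed the threshold, passing it without KO LPS replicate 2 (adjusted p = 0.027), under total scaling (0.00013) and in DESeq2 (0.025). The rise with LPS was 6.94 ± 0.06 in KO and 6.00 ± 0.06 in WT cells, an interaction of 0.93 ± 0.08, adjusted p = 2.2e-08. With IFNg it was 4.63 ± 0.06 and 3.99 ± 0.06 (interaction 0.65 ± 0.08, adjusted p = 1.4e-05). IL4 raised Nlrp3 in KO cells (0.68 ± 0.06, adjusted p = 9.4e-10), while the change in WT cells was -0.09 ± 0.06, adjusted p = 0.32, and these differed (interaction 0.77 ± 0.08, adjusted p = 3.4e-07). All 3 interactions contain the same untreated groups, where the genotypes differed most. From high to low the groups ran WT LPS, KO LPS, WT IFNg, KO IFNg, WT control, WT IL4, KO IL4 and KO control, with no overlap between neighbours. Nlrp3 lies at chr11:59541568-59566956 on the plus strand.

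Pycard, the gene of the adaptor ASC, had the narrowest range of group means of the 10 members, and of the 4 genotype comparisons it was called with LPS only. It had 496, 483 and 628 normalised reads in KO LPS libraries, against 799, 802 and 932 in WT LPS libraries. The KO libraries were all lower, at 63.5% of the WT mean (log2 difference -0.66 ± 0.09, adjusted p = 4.6e-06), and the first of them rested on 21 reads. LPS raised Pycard in WT cells (0.69 ± 0.09, adjusted p = 2.9e-07) and the change in KO cells was -0.08 ± 0.09, adjusted p = 0.45, an interaction of -0.77 ± 0.12, adjusted p = 0.00014. These directions depend on the scaling: with libraries scaled to the same total the change was -0.07 in WT cells (adjusted p = 0.50) and -0.95 in KO cells (7.0e-10), while with weights estimated per library it was 0.04 in KO cells. Without KO LPS replicate 3, the highest of its group, the KO change was called as well (adjusted p = 0.039). In a fit of the LPS groups only, the genotype difference had an adjusted p of 0.057.

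The highest Pycard came with IL4, 1129, 1269 and 1131 in KO libraries, against 1038, 1105 and 1064 in WT libraries, rises of 1.06 ± 0.09 and 1.03 ± 0.09. With IFNg it averaged 873 ± 24.7 in KO and 833 ± 48.5 in WT cells, and at rest 565 ± 37.1 and 522 ± 30.7 (SD, n = 3 each). The highest and lowest of the 8 group means differed by 2.25-fold, against 6948-fold for Il1b. Pycard lies at chr7:127989708-127993867 on the minus strand and shares 485 exonic bases with Gm45205 on the plus strand, a gene not analysed here.

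Casp1 and Casp4, the genes of caspase-1 and caspase-11, were higher in KO cells with IL4, with larger log2 differences there than in the other treatments. With IL4 Casp4 had 1221, 1074 and 1114 normalised reads in KO libraries, against 574, 501 and 541 in WT libraries. The lowest KO library was above the highest WT library, and the means differed by 2.11-fold (log2 difference 1.08 ± 0.08, adjusted p = 4.4e-10). Casp1 had 5979, 5133 and 5152 in KO IL4 libraries, against 3167, 3191 and 3270.2 in WT IL4 libraries, also without overlap (1.69-fold, log2 difference 0.75 ± 0.09, adjusted p = 1.0e-06). IL4 raised Casp1 in KO cells by 0.78 ± 0.09, and the change in WT cells was 0.22 ± 0.09, adjusted p = 0.092, called without WT control replicate 1 (0.041), in edgeR (0.044) and with library weights (0.024). The interaction was 0.56 ± 0.13, adjusted p = 0.0077 for Casp1. For Casp4 the rises were 1.30 ± 0.08 in KO and 0.34 ± 0.08 in WT cells, an interaction of 0.96 ± 0.11, adjusted p = 2.4e-06.

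With LPS both caspase genes were near their highest, and the genotypes stood closer. Casp4 had 13065, 14311 and 13029 in KO LPS libraries, against 10990.0, 10604 and 12577 in WT LPS libraries, higher in all 3 (log2 difference 0.24 ± 0.08, adjusted p = 0.031). That call was lost without KO LPS 2, WT LPS 1 or WT LPS 2 (adjusted p 0.10 to 0.14), under total scaling (0.48) and in a fit of the LPS groups only (0.20). Casp1 had 20318, 22963 and 21995 in KO LPS libraries, against 18250.1, 18345 and 23068 in WT LPS libraries. WT LPS replicate 3 was the highest of the 6, and the log2 difference of 0.14 ± 0.09, adjusted p = 0.30 was called without it (0.040) and with library weights (0.049). The rise with LPS was 4.87 ± 0.08 in KO and 4.74 ± 0.08 in WT cells for Casp4, and 2.79 ± 0.09 and 2.84 ± 0.09 for Casp1, with neither interaction called.

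With IFNg Casp4 had 8346, 9603 and 9262 in KO libraries, against 7116, 8115 and 7474 in WT libraries, and Casp1 had 9833, 11859 and 10844 in KO libraries, against 8661, 9334 and 8731 in WT libraries. Both genes were higher in every KO library than in any WT library, by log2 differences of 0.26 ± 0.08, adjusted p = 0.042 for Casp4 and 0.28 ± 0.09, adjusted p = 0.049 for Casp1. These calls lie near the threshold: Casp4 was lost without any 1 of KO IFNg 2 or 3 and WT IFNg 1 or 3 (adjusted p 0.13 to 0.20), and Casp1 without KO IFNg 2 or 3 or any WT IFNg library (0.065 to 0.24). Both were also lost under 5 of the 10 other alternatives: the replicate block (adjusted p = 0.057 for Casp4 and 0.068 for Casp1), no filter on low values (0.059 and 0.074), median centring (0.063 and 0.064), total scaling (0.097 and 0.094) and the IFNg groups only (0.096 and 0.087). At rest the genotypes overlapped for both, at 461 ± 44.2 in KO and 426 ± 25.6 in WT cells for Casp4 and 3144 ± 233 and 2765 ± 281 for Casp1 (SD, n = 3 each). From high to low both genes ran KO LPS, WT LPS, KO IFNg, WT IFNg, KO IL4, WT IL4, KO control and WT control. The genes lie next to each other on the plus strand of chromosome 9, Casp1 at chr9:5298517-5307265 and Casp4 at chr9:5308828-5336783.

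Gsdmd, the gene of gasdermin D, differed between genotypes with IL4 and IFNg, in opposite directions. With IL4 it had 2382, 2408 and 2272 normalised reads in KO libraries, against 1955, 1718 and 1662 in WT libraries. The KO libraries were all higher (log2 difference 0.41 ± 0.07, adjusted p = 0.00019). With IFNg it had 3133, 3618 and 3477 in KO libraries, against 4261, 3863 and 3855 in WT libraries, here all lower (log2 difference -0.23 ± 0.07, adjusted p = 0.039). That call was lost without KO IFNg 1 or 3 or any WT IFNg library (adjusted p 0.059 to 0.23), with no filter on low values (0.052) and in a fit of the IFNg groups only (0.12). With LPS the genotypes overlapped, at 3993, 4372 and 4321 in KO libraries, against 4908, 4609 and 4307 in WT libraries, the highest group means of the gene. Under total scaling this difference was called, lower in KO (-0.29, adjusted p = 0.0030).

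Untreated cells averaged 1344 ± 84.7 in KO and 1289 ± 57.5 in WT libraries (SD, n = 3 each). IL4 raised Gsdmd by 0.81 ± 0.07 in KO and 0.46 ± 0.07 in WT cells, an interaction of 0.35 ± 0.10, adjusted p = 0.049. This was lost without any 1 of 9 of the 12 libraries, every 1 but KO control replicate 1, WT control replicate 2 and WT IL4 replicate 1 (adjusted p 0.058 to 0.17), and under 6 of the 10 other alternatives (adjusted p 0.057 to 0.080), edgeR, total scaling and the replicate block (0.057) among them. The rises with LPS were 1.65 ± 0.07 and 1.84 ± 0.07, and with IFNg 1.34 ± 0.07 and 1.63 ± 0.07. Gsdmd lies at chr15:75862327-75867408 on the plus strand.

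Levels of different genes were compared per kb of annotated exon, as ratios within each library, which no scaling between libraries can change. The lengths are those of all annotated exons of a gene, so a ratio shifts if the cells use shorter transcripts. Whether KO and WT cells use the same transcripts was not tested. With LPS the level of Il1a was 0.540 ± 0.0126 times that of Il1b in KO cells, against 0.299 ± 0.0183 in WT cells (SD, n = 3 each). The KO libraries spanned 0.529 to 0.554 and the WT libraries 0.286 to 0.320, far apart beside that spread. With IFNg, IL4 and at rest the genotypes overlapped in this ratio.

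The antagonist gene Il1rn stood at 0.316 ± 0.0138 times Il1b in KO LPS cells, against 0.374 ± 0.0256 in WT LPS cells. With IFNg the ratio was 126 ± 17.9 in KO cells, against 219.9 ± 8.67 in WT cells (SD, n = 3 each). In both treatments every KO library had less Il1rn per Il1b than every WT library. In both genotypes Il1rn was below Il1b per kb with LPS and above it with IFNg. In WT LPS cells that order depends on the exon lengths, 5535 bases for Il1rn and 1907 for Il1b. Without them the WT LPS means were 85896 for Il1rn and 79159 for Il1b, and the KO LPS means 108452 and 118193. Il18bp stood at 3.72 ± 0.414 times Il18 in KO IFNg cells, against 5.25 ± 0.484 in WT IFNg cells, and at 1.71 ± 0.326 in KO IL4 cells, against 1.17 ± 0.111 in WT IL4 cells. The genotypes did not overlap in either, lower in KO with IFNg and higher with IL4.

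Nlrp3 stood at 0.384 ± 0.0335 times Pycard in KO control cells, against 0.874 ± 0.0602 in WT control cells. With LPS it stood at 50.4 ± 8.40 in KO cells, against 34.9 ± 3.27 in WT cells (SD, n = 3 each). The order of the genotypes was thus reversed between rest and LPS, without overlap in either. Casp4 stood at 0.0847 ± 0.00243 times Casp1 in KO IL4 cells, against 0.0677 ± 0.00500 in WT IL4 cells, again without overlap. With 3 libraries against 3, an exact permutation test cannot give a p below 0.1, so no test is attached to these ratios.

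**Figure D4:**
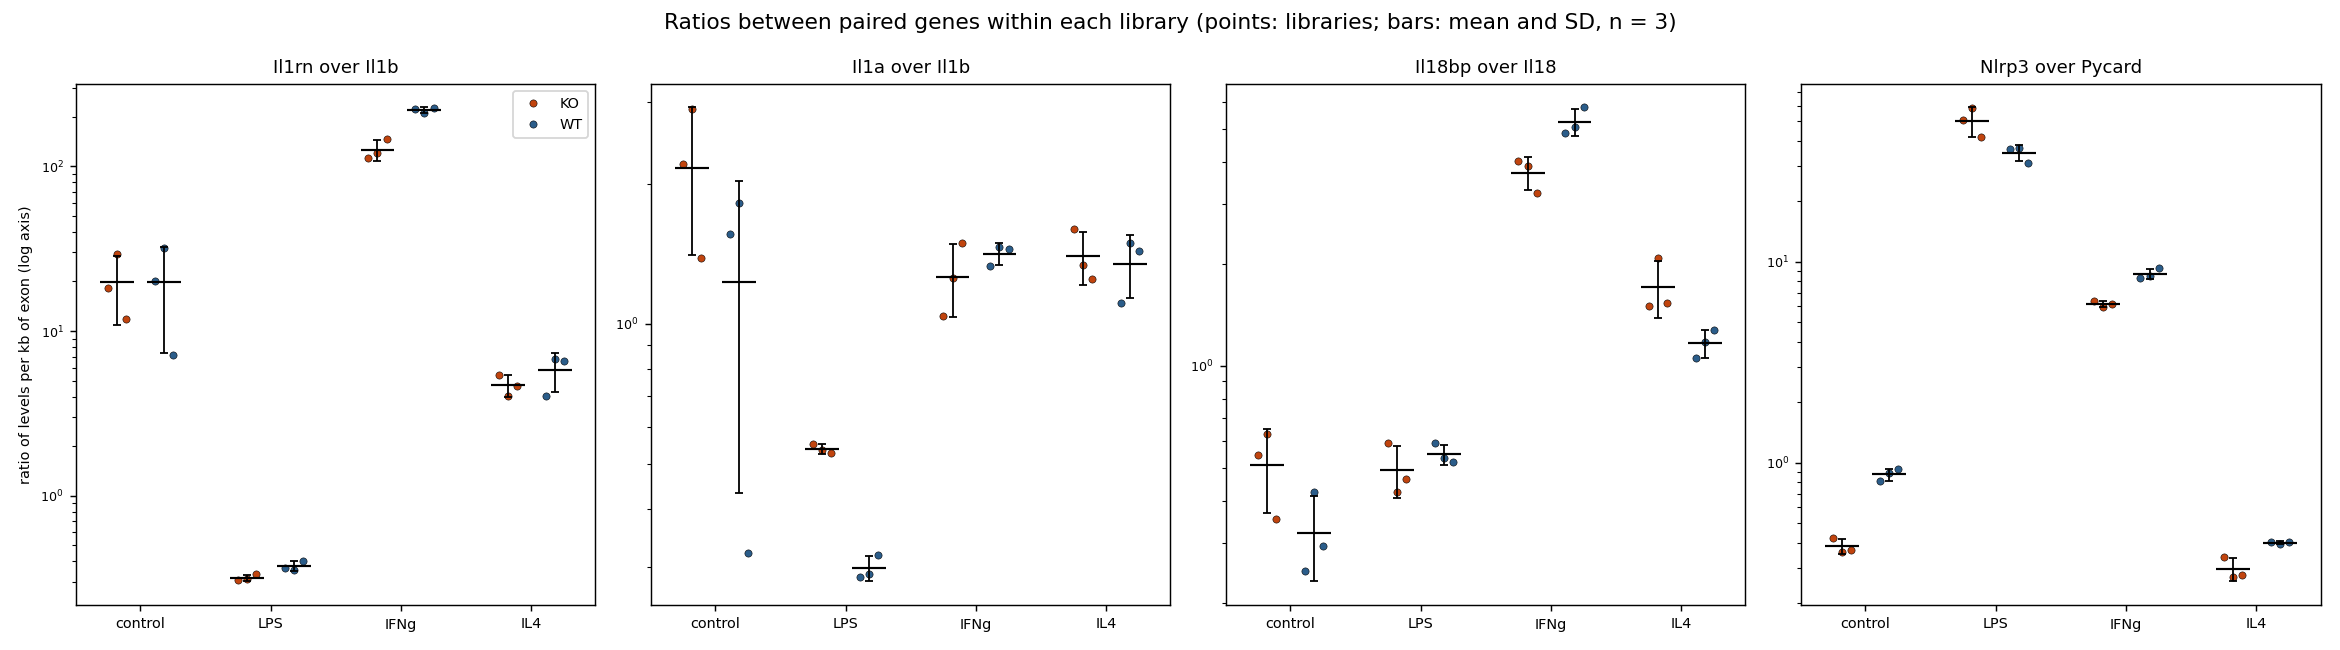
Ratio of levels per kb of exon (log axis) for 4 pairs of genes within each library, by treatment, KO left and WT right, with points for libraries and bars for mean and SD (n = 3). With LPS the KO libraries lie above the WT libraries in Il1a over Il1b (0.529 to 0.554, against 0.286 to 0.320), and Il1rn over Il1b falls below 1 with LPS and rises above 100 with IFNg in both genotypes.

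The genes whose pattern over the 8 group means was most like that of each member were sought among 9613 genes with a group mean of at least 100, by Pearson's r of the mean log2 values. The 8 means share libraries and 3 treatments, so r is a description only. For Il1a they were Usp42 (0.997), Mrpl30 (0.997) and Il1b (0.996), and for Il1b Cxcl1 (0.998), Rab21 (0.997) and Il1a (0.996), which places the IL-1 cytokine genes among each other's nearest. For Il1rn they were Snx20 (0.999), Ncoa5 (0.998) and Ppp1r11 (0.996), for Nlrp3 Acvr1 (0.996), Slx4ip (0.995) and Pmpca (0.995), and for Il18 Stk40 (0.996), Clic1 (0.996) and Ythdf1 (0.996). For Il18bp they were Gbp2 (0.993), Bak1 (0.992) and Hcls1 (0.991), of which Gbp2 is an interferon-induced GTPase gene. Casp4 was most like Nlrc5 (0.999), Ifi205 (0.999) and Tap1 (0.999), where Nlrc5 and Tap1 act in the MHC class I pathway. Casp1 was most like Tcp1 (0.999), Znfx1 (0.998) and Phf11d (0.998), Gsdmd like Acsl5 (0.998), Zdhhc17 (0.995) and Tlr6 (0.994), and Pycard, with the lowest values, like Trip4 (0.977), Krtcap2 (0.968) and Il21r (0.950).

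Other genes of IL-1 signalling and inflammasomes were followed as a list of 50 genes, of which 43 passed the filter: cytokines, receptors and signalling genes such as Il1r1 and Myd88, and other sensors, caspases and gasdermins. Between genotypes 2 were called higher and 2 lower in KO control cells, beside 4.11% and 3.05% of all genes. With LPS 4 were higher and 10 lower, beside 9.70% and 12.5%, and with IFNg 0 were higher and 6 lower, beside 4.83% and 4.21%. With IL4 11 were higher and 1 lower, beside 6.14% and 3.14%. Under total scaling the counts were 0 higher and 5 lower in control, beside 3.57% and 5.09% of all genes. With LPS they were 2 and 17 (5.49% and 24.8%), with IFNg 0 and 7 (3.82% and 6.78%) and with IL4 7 and 4 (4.76% and 6.07%). Their median log2 difference was -0.02 with LPS and 0.09 with IL4. LPS raised 19 and lowered 14 in KO cells, where 24.5% of all genes were called higher and 32.5% lower, and raised 20 and lowered 14 in WT cells (25.5% higher and 27.8% lower). IFNg raised 14 and lowered 11 in KO cells (22.3% higher and 23.7% lower) and raised 18 and lowered 12 in WT cells (22.5% higher and 22.6% lower). IL4 raised 11 and lowered 3 in KO cells (12.6% higher and 10.5% lower) and raised 7 and lowered 6 in WT cells (10.6% higher and 9.56% lower). Under total scaling LPS raised 15 and lowered 24 in KO and raised 14 and lowered 21 in WT cells, IFNg raised 13 and lowered 18 in KO and raised 15 and lowered 18 in WT cells, and IL4 raised 10 and lowered 4 in KO and raised 7 and lowered 9 in WT cells. As deposited, the interaction was called in 8 with LPS (2 positive), 1 with IFNg (negative) and 4 with IL4 (all positive). Beside these 8.79%, 2.50% and 3.61% of all genes were called.

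Among these, Mefv, the gene of the inflammasome sensor pyrin, was lower in KO cells in all 4 treatments. With LPS it averaged 767 ± 112 in KO and 1904 ± 66.8 in WT cells (log2 difference -1.32 ± 0.18, adjusted p = 4.6e-06). Nlrc5, a transactivator of MHC class I genes, was higher in KO cells with IL4, at 2001 ± 106 in KO and 1035 ± 42.2 in WT cells (log2 difference 0.95 ± 0.06, adjusted p = 6.1e-12). Casp12, a caspase gene of the same cluster as Casp1 and Casp4, was also higher with IL4, at 33.8 ± 1.81 in KO and 10.5 ± 1.84 in WT cells (log2 difference 1.61 ± 0.25, adjusted p = 4.8e-05). Serpinb1a, a serine protease inhibitor gene, was lower in KO cells with IFNg, at 6.34 ± 2.80 in KO and 50.4 ± 1.35 in WT cells (log2 difference -2.89 ± 0.64, adjusted p = 0.0035). Its KO IFNg mean lies near the floor of 3 reads, which was 1.92 to 5.08 in those libraries. 

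Il18rap, a subunit of the IL-18 receptor, rose with IFNg to 704 ± 17.6 in KO cells, against 12.6 ± 1.30 in KO control cells, and to 1357 ± 24.9 in WT cells, against 15.8 ± 3.38 in WT control cells (log2 difference 5.70 ± 0.30, adjusted p = 3.7e-14 in KO). Il33, another IL-1 family cytokine gene, had no read in the 6 control libraries and averaged 72.6 ± 10.9 in KO LPS and 58.9 ± 6.26 in WT LPS cells. Il1rl2, the receptor gene of the IL-36 cytokines, rose with IL4, to 368 ± 30.2 in KO cells, against 78.9 ± 7.20 in KO control cells, and to 336 ± 17.1 in WT cells, against 41.4 ± 3.80 in WT control cells. Nlrp10, a relative of Nlrp3, was lower in KO cells at rest (log2 difference -0.72 ± 0.20, adjusted p = 0.027) and higher with LPS (log2 difference 1.29 ± 0.20, adjusted p = 4.1e-05), with an interaction of 2.01 (adjusted p = 3.4e-05). Values of the near-identical Naip and Nlrp1 copies are uncertain, because reads can be split between them. Nlrp1b changed with LPS by -3.30 in KO and -3.31 in WT cells on the log2 scale (limma adjusted p = 7.6e-12 and 8.3e-12). In KO LPS cells Nlrp10 averaged 129 ± 32.7, Il33 72.6 ± 10.9 and Nlrp1b 47.6 ± 20.8. These values rest on few reads in KO LPS replicate 1, where 1 read was worth 23.6 and the floor of 3 reads was 70.9.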

How the data were processed

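The deposited table holds 1 column per library of 24 BMDM libraries, with 43629 genes and a signal that the authors made by dividing gene-level read counts by 1 factor for each library. The values themselves show this: in every library 100% of values were whole multiples of the value of 1 read, within 0.05 reads. Per the submitters' processing notes, TopHat2 2.2.1, Cufflinks 2.2.1 and Cuffdiff were used with mm10 (GRCm38). The counting program, its annotation and its strand setting are not given in the sources used here. Reads ranged from 1478507 to 73409343 per library, so the shallowest library, KO LPS replicate 1, is the least precise. No library duplicated another: the chi-square per degree of freedom between libraries of a group was 2.03 to 24.5 over 24 pairs.

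The filter kept genes that reached 1 in 3 or more libraries (18637), and log2 of the value plus 1 was fitted across all genes with limma 3.58.1 in R 4.3.3, with 1 mean per group, a mean-variance trend and 16 residual degrees of freedom. Fold changes on this scale understate those of genes near 0. A call is a Benjamini-Hochberg adjusted p below 0.05 over all genes. Alternatives used edgeR 4.0.16 (quasi-likelihood, TMM) and DESeq2 1.42.0 on the recovered whole reads, a pseudocount of 5, other filters and scalings, library weights, the replicate number as a block, and leaving out single libraries. The code was tested on simulated data. The members and the list of other pathway genes were chosen with earlier results of these data known. Besides the members and Cited2, genes named are, from the list and in each comparison, up to 2 called genes with the largest rise and 2 with the largest fall and a mean of at least 10, not all of which are printed, the 3 genes most like each member, annotated overlap partners, and markers. Positions and exon lengths are those of GENCODE M21 (GRCm38), and promoter windows come from RefSeq.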

Additional observations from a re-analysis of the deposited data

Results flagged for a closer look

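In 13 cases a member's response to a treatment differed between KO and WT cells by the test of the difference itself, the limma interaction. Of all genes 8.79% were called with LPS, 2.50% with IFNg and 3.61% with IL4. Each value is the log2 change in KO cells minus that in WT cells.

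With LPS these were Nlrp3 (0.93), Il1a (0.73) and Il1rn (0.55), whose rises were larger in KO cells, and Il18bp (-0.78) and Pycard (-0.77), whose changes were smaller in KO cells. The Il1a call was lost in 7 of 12 fits without 1 library and under 2 of 10 other alternatives. The mean of Pycard in KO LPS cells was 536, against 844 in WT LPS cells, from 21 reads in the shallowest KO library.

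With IFNg they were Il1rn (0.71) and Nlrp3 (0.65), larger in KO cells, and Il18bp (-0.61), smaller in KO cells. The Il18bp call with IFNg was lost in a fit of the compared groups only. With IL4 they were Casp4 (0.96), Nlrp3 (0.77), Il1rn (0.59), Casp1 (0.56) and Gsdmd (0.35). The Gsdmd call was lost in 9 of 12 fits without 1 library and under 6 of 10 other alternatives. The 3 interactions of a gene share its untreated libraries, and for Nlrp3 these averaged 231 in KO cells, against 486 in WT cells.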

How the results depend on the processing

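Over 140 member-by-comparison results, 96 were called, and 35 changed their call under at least 1 of 10 alternatives or on leaving out 1 library. Of the called results 1 changed sign, Pycard with LPS against control in WT cells. Leaving out 1 library gave 2 to 4 called members for KO against WT in control, 4 to 6 with LPS, 4 to 6 with IFNg, 7 with IL4 and 7 to 8 over the mean. It gave 9 to 10 for LPS in KO cells, 10 for IFNg in KO, 9 for IL4 in KO, 10 for LPS in WT, 10 for IFNg in WT and 6 to 7 for IL4 in WT cells, and 4 to 5, 3 to 4 and 4 to 5 for the interactions with LPS, IFNg and IL4. With all libraries, 7.16%, 22.2%, 9.05%, 9.29% and 22.3% of all genes were called for KO against WT in that order. The treatments had 10631, 8572, 4316, 9942, 8412 and 3749 of 18637 genes called, and the interactions 8.79%, 2.50% and 3.61%. A fit of the compared groups only, which has fewer samples, called 1 member in control and 3 with LPS. It called 1300 and 1021 of 18637 genes in these. No filter on low values called 4 members with IFNg, beside 1651 of 24301 genes. Library weights called 6 in the interaction with IFNg, beside 1520 of 18637 genes. The cause of either was not tested. Total scaling turned the sign of Gsdmd in control (-0.0043), Casp1 with LPS (-0.029), Il18 (-0.065) and Gsdmd (-0.067) over the mean, Pycard with LPS in WT cells (-0.074), and the interactions of Il18 with LPS (-0.069), Il1a with IL4 (-0.028) and Pycard with IL4 (-0.0029). Library weights turned Pycard with LPS in KO cells (0.041) and the interactions of Casp1 with LPS (0.10) and Pycard with IFNg (0.066), and median centring turned the IL4 interactions of Il1a (-0.037) and Pycard (-0.017). Leaving out 1 library also changed signs among results that were not called. The range was -0.76 to 0.20 for Il1b in control, above 0 only without WT control replicate 3, and -0.0051 to 0.068 for Il18 over the mean. For the interactions it was -0.12 to 0.060 for Casp1 with LPS, -0.052 to 0.18 for Il18 with LPS, -0.20 to 0.22 for Il1a with IL4 and -0.032 to 0.053 for Pycard with IL4. Same-numbered replicates mostly did not deviate together (r from -0.423 to 0.440, 5 of 30 pairs over 0.1, 3 of 24 libraries nearest to their own number). With 3 libraries a group and unequal depth this check cannot exclude that the numbers pair the samples, which the labels do not give. With the replicate block 4 members were called in control, 5 with LPS, 5 with IFNg, 7 with IL4 and 4 in the IL4 interaction. Beside these, 1257, 3984, 1607, 1644 and 612 of 18637 genes were called. Over all genes, KO against WT gave 1334, 4141, 1686 and 1731 calls in control, LPS, IFNg and IL4 cells by limma, against 1905, 3543, 2533 and 2862 by edgeR, 1889, 3561, 2576 and 2735 by DESeq2, and 3063, 3999, 3512 and 4035 with library weights. The compared groups only gave 1021 with LPS, and 862 in the LPS interaction, against 1639. Library weights gave 2755, 1520 and 2338 calls in the LPS, IFNg and IL4 interactions and DESeq2 gave 849 and 1169 in the last 2 of these, against 1639, 466 and 672. For IL4 against control library weights gave 7056 in KO and 6125 in WT cells, against 4316 and 3749. Calls higher and lower in KO were 665 and 948 in control under total scaling (766 and 568 as deposited), 712 and 1264 with IFNg (901 and 785), 887 and 1131 with IL4 (1145 and 586), 1301 and 4530 over the mean (2158 and 1995) and 597 and 1590 in the LPS interaction (800 and 839). Median centring gave 394 and 304 in the IL4 interaction (457 and 215). Without KO LPS replicate 1 the LPS split was 2151 and 1823, against 1808 and 2333 with it. Total scaling moved the median of all genes by -0.34 with IFNg in KO and -0.35 in WT cells, and DESeq2 by 0.26 with LPS in KO cells. Depth limits the untreated values of Il1a and Il1b (6 to 57 reads) and low values of KO LPS replicate 1.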

Other observations

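Other genes of the pathway list also fell with treatment or differed between genotypes. Gsdme, another gasdermin gene, was lower with IFNg, at 39.4 ± 11.1 in KO IFNg cells, against 187 ± 14.2 in KO control cells, and at 28.0 ± 2.11 in WT IFNg cells, against 156 ± 12.3 in WT control cells (SD, n = 3 each, log2 differences -2.25 and -2.44, limma adjusted p = 2.9e-09 and 6.6e-10). Nlrc3, a sensor gene known as a negative regulator of inflammatory signalling, was also lower with IFNg, at 61.9 ± 7.12 in KO IFNg cells, against 495 ± 27.4 in KO control cells, and at 38.6 ± 5.08 in WT IFNg cells, against 386 ± 46.3 in WT control cells (limma adjusted p = 0.0071 and 0.0033). Txnip, whose product has been reported to bind NLRP3, was lower with IL4, at 13046 ± 405 in KO IL4 cells, against 19438 ± 384 in KO control cells, and at 11166 ± 375 in WT IL4 cells, against 18304 ± 261 in WT control cells (limma adjusted p = 1.2e-09 and 2.9e-11). Its response to IFNg differed between genotypes (interaction -0.37, adjusted p = 0.0019), with 14269 ± 492 in KO IFNg and 17347 ± 291 in WT IFNg cells. Aim2, the gene of a sensor of cytosolic DNA, was higher in KO control cells, at 1288 ± 91.3, against 1120.4 ± 42.1 in WT control cells (log2 difference 0.20 ± 0.06, adjusted p = 0.042). That call lies near the threshold and was lost under total scaling, where no gene of the list was called higher in KO control cells.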
